A study of Bos taurus with 6 samples.

Results

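The 10 genes described here encode proteins of the outer dense fibres and of the fibrous sheath of the sperm tail: ODF1, ODF2, ODF4, AKAP3, AKAP4, FSIP1, FSIP2, CABYR, ROPN1 and ROPN1L. They were chosen by name, and each of the 10 symbols was found once among the 47249 entries of the table of genes. The libraries were made from testes of 3 immature calves aged 3 months and 3 andrologically mature bulls aged 3 years, all untreated and of a local Chinese breed (Wandong cattle), with 1 library per animal. Total RNA was depleted of ribosomal RNA, sequenced with strand information, and summarised by the authors as FPKM, a fragment count divided by transcript length and by the number of mapped fragments of the library. Values of a gene are given in the order of the animals' numbers in each group.

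The outer dense fibres are stiff rods that run along the axoneme, the bundle of microtubules that beats in the sperm tail. In the principal piece of the tail they are surrounded by the fibrous sheath, a pair of longitudinal columns joined by ribs, which holds protein kinase A and enzymes of glycolysis close to the axoneme. Both structures are built in spermatids, the haploid cells that follow meiosis, which are not formed before puberty.

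Counts per gene were not part of the tables, and errors are those between animals of a group. The authors list the clean reads of each library, but not the fragments behind each value. The sum of FPKM over all entries ranged from 587066 to 1098720 across the libraries, with the lowest in the library labelled calf 3. That library went against its label. In it, genes of oligodendrocytes, astrocytes and neurons summed to an FPKM of 14213, against 11.5 to 18.5 in the other 5 libraries, and the Leydig cell genes summed to 0.502, against 1141 to 2738. Of the 8 genes of Sertoli cells, FSHR, WT1 and GATA4 were listed at 0 there, and INHA, AMH and DHH were below 1. The other genes of that list were not absent: SOX9 was at 13.7, against 21.9 and 25.6 in calf 1 and calf 2. CLDN11 was at 429, its highest value in any library. All 10 genes below were called with and without this library. Means and fold changes of calves include it unless stated otherwise, and the value of each of the 10 genes in it is given.

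All 10 genes were far higher in the testes of bulls than in those of calves. In every one of them the lowest bull lay above the highest calf, and the log2 fold changes (bull minus calf, on the scale of log2(FPKM + 1)) ranged from 3.05 for FSIP1 to 8.18 for ROPN1. The median over the 10 genes was 6.0, beside 0.43 over the 18115 genes tested. The added 1 makes the fold changes of genes with low values smaller than they would be otherwise. A gene was called where the adjusted p of limma (two-sided, Benjamini-Hochberg over all genes tested) was below 0.05 and the groups differed by 1 or more on the log2 scale. By this rule 10 of 10 genes were called higher in bulls. Of all genes tested, 35.7% were called higher in bulls, and in 46.1% the 3 bulls lay above the 3 calves. Only ODF2 reached an FPKM of 1 in all 3 calves. The other 9 passed the filter (3 or more libraries with an FPKM of 1 or above) through the bulls, so that their number called is no support. Of these 9, 5 were below 1 in every calf, and among all genes at 1 or more in every bull and below 1 in every calf, 95.0% were called higher in bulls. The values are from whole tissue, in which fewer cells of a type and less RNA per cell cannot be told apart. Without the library labelled calf 3, the log2 fold changes ranged from 2.93 for FSIP1 to 8.04 for ROPN1.

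**Figure D1:**
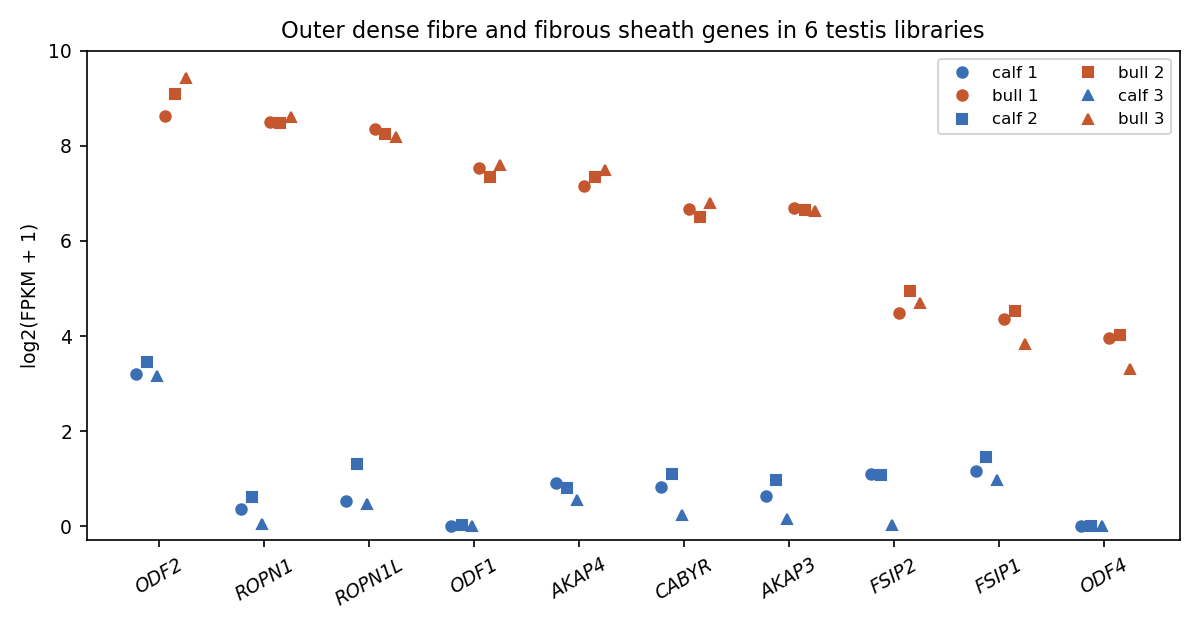
Level of each of the 10 genes as log2(FPKM + 1), with calves in blue and bulls in orange and 1 point per library. Genes are ordered by their mean over bulls. Every bull lies above every calf in each gene, and ODF2 alone lies above 3 on this scale in calves.

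Among the genes of the outer dense fibres, ODF1 (ENSBTAG00000003445, chromosome 14, 61844561 to 61854021) encodes the main structural protein of the fibres. Its FPKM was 185, 161 and 191 in the bulls. In the calves it was listed at 0 in calf 1 and calf 3 and at 0.0252 in calf 2. The 2 groups were therefore separated almost completely, and no linear fold is given against calves listed at or near 0. On the log2(FPKM + 1) scale the fold change was 7.48 (standard error, SE, 0.14, adjusted p = 2.53e-06), the smallest standard error of the 10 genes. After the added 1, calves listed at or near 0 hardly differ and add little to this standard error.

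ODF2 (ENSBTAG00000030567, chromosome 11, 99034978 to 99062572) encodes a coiled-coil protein of the fibres that is also found, as cenexin, at the mother centriole of many cell types. It had the highest level of the 10 genes in both groups. The FPKM was 8.21, 10.03 and 7.93 in the calves, and 393, 544 and 692 in the bulls. All calves, calf 3 included, were close to each other, whereas the bulls spread over a 1.76-fold range. The calves had a mean of 8.72 ± 1.14 (SD, n = 3), whereas that of the bulls was 543 ± 149 (SD, n = 3), a 62.2-fold difference in FPKM and a log2 fold change of 5.77 (SE 0.25, adjusted p = 1.48e-05). Its mean over bulls ranked 49th of the 18115 genes tested.

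ODF4 (ENSBTAG00000014443, chromosome 19, 27949233 to 27956109), a smaller gene of the same family name, was the weakest of the 10 in bulls. Its FPKM was 14.6, 15.3 and 8.96 in the bulls. The calves lay at 0.00664, 0.00846 and 0. Bull 3 was clearly below the other bulls, yet all bulls were far above the calves. The log2 fold change was 3.76 (SE 0.23, adjusted p = 5.52e-05), a value that the added 1 holds down, since the level in calves is near 0.

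The fibrous sheath is built around AKAP3 and AKAP4, A-kinase anchoring proteins that hold protein kinase A in the tail. AKAP4 (ENSBTAG00000016399), which lies on the X chromosome from 87890314 to 87934363, encodes the most abundant protein of the sheath. It was at 141, 161 and 178 in the bulls, and at 0.877, 0.734 and 0.475 in the calves. The log2 fold change was 6.57 (SE 0.17, adjusted p = 3.62e-06). AKAP3 (ENSBTAG00000001020, chromosome 5, 105499533 to 105523869) was at 103, 99.7 and 98.1 in the bulls and at 0.562, 0.952 and 0.103 in the calves. Its 3 bulls differed by less than those of any other of the 10 genes, with a coefficient of variation of 2.24%. The log2 fold change of AKAP3 was 6.08 (SE 0.24, adjusted p = 1.11e-05).

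FSIP1 and FSIP2 are named as fibrous sheath interacting proteins. FSIP2 (ENSBTAG00000003645, chromosome 2, 10562905 to 10705488), a very large protein needed for the sheath, had an FPKM of 21.2, 29.8 and 24.8 in the bulls. It was at 1.13 and 1.12 in calf 1 and calf 2 but at 0.0123 in calf 3. The log2 fold change was 3.97 (SE 0.35, adjusted p = 0.000200), and 3.61 without calf 3. FSIP1 (ENSBTAG00000012015, chromosome 10, 35227930 to 35436219) was at 19.5, 22.1 and 13.3 in the bulls and at 1.25, 1.75 and 0.953 in the calves. Calf 3 was thus near the other calves for FSIP1, unlike for FSIP2. FSIP1 rose 13.9-fold between the means in FPKM, with a log2 fold change of 3.05 (SE 0.25, adjusted p = 0.000166), the smallest of the 10.

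The remaining genes encode proteins that share a docking domain like that of the regulatory subunit of protein kinase A, through which ropporins bind AKAP3. CABYR (ENSBTAG00000005638, chromosome 24, 32536815 to 32553953) encodes a calcium-binding protein of the sheath that becomes phosphorylated on tyrosine as sperm gain the ability to fertilise. Its FPKM was 101, 89.6 and 109 in the bulls, and 0.774, 1.16 and 0.176 in the calves, a log2 fold change of 5.93 (SE 0.26, adjusted p = 1.53e-05). ROPN1 (ENSBTAG00000006947, chromosome 1, 68349806 to 68384919), the gene of ropporin, was at 361, 355 and 388 in the bulls. The calves lay at 0.294, 0.522 and 0.0345. Its log2 fold change of 8.18 (SE 0.18, adjusted p = 2.76e-06) ranked 30th of all genes tested. ROPN1L (ENSBTAG00000003539, chromosome 20, 62781978 to 62814323), a paralog of ropporin, was at 326, 303 and 292 in the bulls. In the calves it was at 0.443, 1.46 and 0.379, so that calf 2 stood above the other calves. The log2 fold change of ROPN1L was 7.50 (SE 0.26, adjusted p = 7.18e-06).

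The order of the mean levels in bulls was ODF2, ROPN1, ROPN1L, ODF1, AKAP4, CABYR, AKAP3, FSIP2, FSIP1 and ODF4, from 543 to 13.0 in FPKM, a unit that takes account of transcript length. Of the 9 steps in this order, 5 separated the neighbours in all bulls without overlap of their ranges. ODF1 and AKAP4 overlapped and kept their order in 2 of 3 bulls. CABYR and AKAP3, with means of 100.1 each, kept it in 1 of 3. FSIP2 overlapped with FSIP1, and FSIP1 with ODF4, but within each bull the order held. The step from AKAP3 to FSIP2 was wide: the lowest value of AKAP3 was 98.1 and the highest of FSIP2 was 29.8. The ratio of ROPN1 to its paralog ROPN1L was 1.11, 1.17 and 1.33 in the bulls. The ratio of AKAP4 to AKAP3 was 1.38, 1.62 and 1.82. Both ratios were above 1 in every bull and highest in bull 3.

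**Figure D2:**
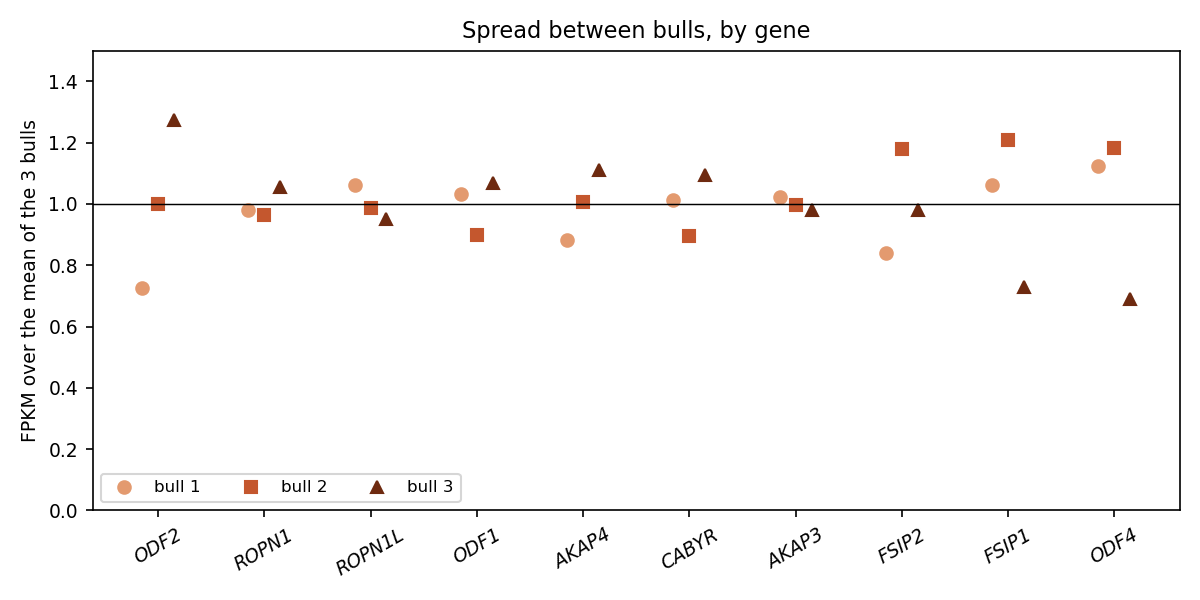
FPKM of each gene in each bull divided by the mean of the 3 bulls, with a line at 1. AKAP3 shows the narrowest spread and ODF2 the widest, with bull 3 highest for ODF2 and lowest for FSIP1 and ODF4.

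The bulls did not differ by a common factor over these genes. The coefficient of variation between bulls was 2.24% for AKAP3, 4.78% for ROPN1 and 5.71% for ROPN1L, and 27.5%, 26.9% and 24.6% for ODF2, ODF4 and FSIP1. Its median was 10.8% over the 10 genes, 13.4% over all genes tested and 14.8% over genes called higher in bulls. Bull 3 was highest in 5 of the 10 genes and lowest in 4. ODF2 was 1.27 times the mean of bulls in bull 3, whereas ODF4 and FSIP1 were 0.691 and 0.729 times their means there. With 1 library per animal, a difference between single bulls has no replicate.

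In calves, the levels were low in all genes but ODF2. Of the 10 genes, 3 reached an FPKM of 1 in calf 1, 5 in calf 2 and 1 in calf 3. The library labelled calf 3 was lowest or tied for lowest in 10 of 10 genes, and over all genes tested this was the case in 53.0%. Calf 2 was highest in 8 of 10, against 35.6% of all genes tested. Some lists of germ cell genes were lowest in calf 3 too, and that of elongating spermatids was not. Over the 8 genes of spermatocytes, the summed FPKM was 23.7, 31.7 and 3.59 in the calves, and over the 8 genes of spermatogonia it was 77.9, 81.3 and 33.5. DDX4, a helicase of all germ cells, was at 14.0, 20.2 and 0.0152. The part of germ cell content in the values of the 10 genes was not tested.

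Genes that mark the stages of germ cells were read beside them. All 9 genes of round spermatids were called higher in bulls, beside 35.7% of all genes tested. Their summed FPKM was 2.76, 3.03 and 0.920 in the calves and 488 to 553 in the bulls. TSSK2, a kinase of spermatids, was at 169, 169 and 180 in the bulls and at 0.0872, 0.0868 and 0.239 in the calves. Of the 8 genes of elongating spermatids, 7 were tested and called higher, with sums over the list of 13851 to 16030 in the bulls, PRM1 and TNP1 making up most. In the calves the sums were 1.05, 1.65 and 1.94, so that calf 3 was the highest calf for these genes. SMCP, SPACA3 and PRM3 were listed at 0 in all calves. The 8 genes of spermatocytes were called higher as well, with sums of 217 to 266 in bulls. Among the 7 tested genes of spermatogonia, 3 were called higher and 1, ZBTB16, lower. Of the genes called higher in these germ cell lists, only SYCP3 reached an FPKM of 1 in all calves. The others passed the filter only with the bulls, so that their number called is no support. With all libraries in the limma fit, none of the 8 Sertoli cell entries and the 8 Leydig cell entries was called. The 7 tested genes of oligodendrocytes, astrocytes and neurons were not called either. In each list, 1 entry (SOX9, STAR and SYT1) had an unadjusted p below 0.05 in this fit. SOX9 passed the adjusted threshold too (adjusted p = 0.0247), but its log2 fold change of −0.88 was too small for a call. The summed FPKM of the Sertoli cell genes was 1796, 1490 and 444 in the calves, of which CLDN11, a gene also used in myelin, made up 429 in calf 3, and 188 to 224 in the bulls. AMH was at 736, 483 and 0.340 in the calves and at 4.52 to 5.19 in the bulls (SE of its log2 fold change 2.41). INHA was at 955, 865 and 0.766 in the calves and at 82.1 to 113 in the bulls. CLDN11 went the other way within the calves, at 0.940, 18.2 and 429. With calf 3 this far from the other calves, the lack of calls is no sign of equal levels.

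At the level of transcripts, the table lists 32 transcripts of the 10 genes, 22 of them from Ensembl and the others assembled from the reads. Of these, 16 passed the filter and 15 were called higher in bulls, beside 34.8% of the 23212 transcripts tested. Only ODF2-203, ODF2-201 and ODF2-202 reached an FPKM of 1 in all calves. The others passed the filter only with the bulls, so that their number called is no support. AKAP3, CABYR, ODF1 and ROPN1 have a single transcript each, which carries the value of the gene. In AKAP4, ROPN1L and FSIP1, a single transcript took nearly the whole level in bulls: AKAP4-204 had a mean of 159 ± 18.8 (SD, n = 3), ROPN1L-203 of 306 ± 17.5 (SD, n = 3) and FSIP1-201 of 17.5 ± 4.36 (SD, n = 3), and no other transcript of these genes passed the filter. Transcripts of 1 gene share sequence, and the split between them is an estimate of the authors' software.

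ODF2 differed between the groups in its transcripts as well as in its level. Of its 6 Ensembl transcripts, ODF2-204 (ENSBTAT00000079857) was at 326, 441 and 589 in the bulls, and at 1.04, 2.42 and 0.643 in the calves. Its log2 fold change was 7.61 (SE 0.35, adjusted p = 2.52e-05). ODF2-204 spans 99035483 to 99058373, so that it begins inside the span of the longest transcripts and ends before that of any other. It held 82.8%, 81.1% and 85.2% of the FPKM of ODF2 in the bulls. In the calves its share was 12.7%, 24.1% and 8.11%, and no calf came near a bull. The share differed by 68.1 percentage points between the means (p = 0.1 in a two-sided exact permutation test, in which 3 animals against 3 cannot give a smaller p). ODF2-204 was taken because it had the highest mean over all libraries, a choice set by the bulls. The test is therefore no support for a higher share in bulls.

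The other transcripts of ODF2 took a much smaller part in the rise. ODF2-203 (ENSBTAT00000020325) was at 36.1, 59.1 and 53.3 in the bulls and at 3.15, 1.77 and 2.16 in the calves, with a log2 fold change of 3.90 (SE 0.26, adjusted p = 8.43e-05). ODF2-201 had 3.77 (adjusted p = 5.18e-05) and ODF2-206 had 1.89 (adjusted p = 0.00365). ODF2-202 (ENSBTAT00000068517) went the other way. It was at 1.28, 2.85 and 1.79 in the calves and at 0.725, 1.001 and 0.831 in the bulls. With a log2 fold change of −0.65 (SE 0.23, adjusted p = 0.0520) it was not called. After quantile normalization the lower level in bulls passed the rule for a call (−1.39, adjusted p = 0.00211), under a scaling that moved the median of all genes from 0.43 to −0.26. ODF2-205 stayed below 1 in all libraries and was not tested. The sum of all transcripts but ODF2-204 was 7.18, 7.61 and 7.29 in the calves, and 67.7, 103 and 102 in the bulls. Without ODF2-204, the mean of ODF2 was thus 12.3 times higher in bulls, against 62.2 times with it.

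**Figure D3:**
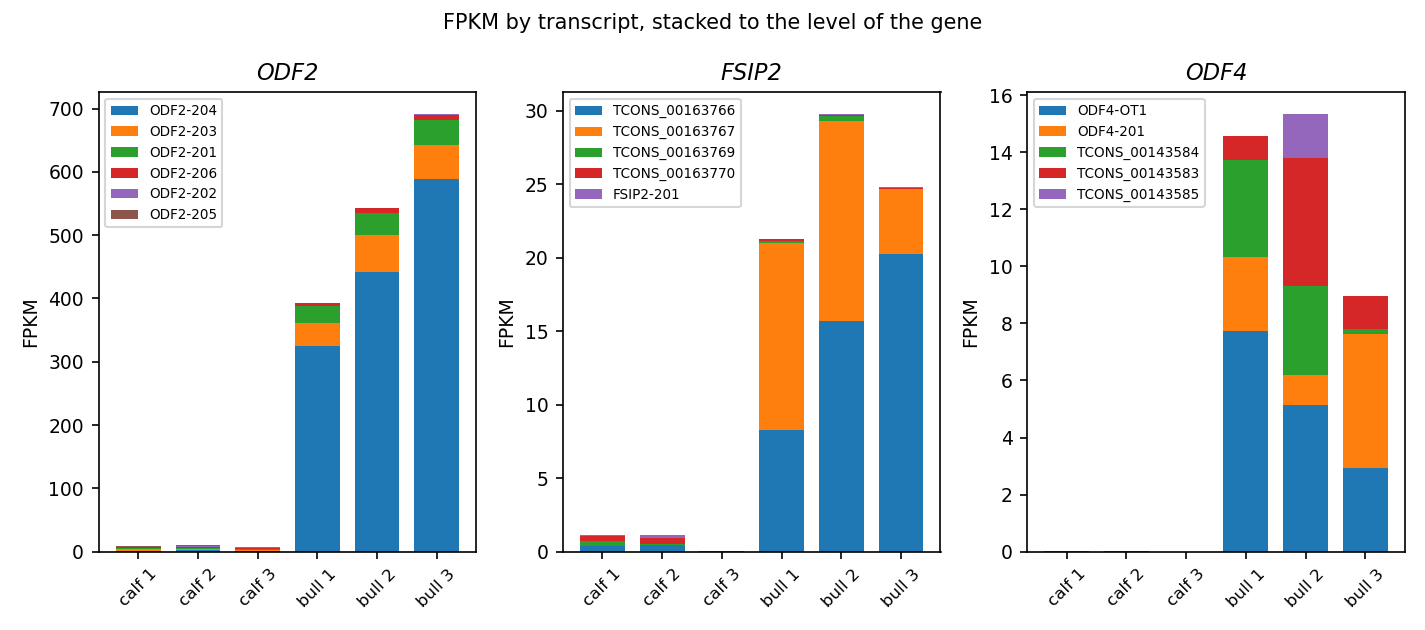
FPKM of each transcript of ODF2, FSIP2 and ODF4, stacked to the level of the gene in each of the 6 libraries (linear axes from 0, scaled to each gene). ODF2-204 makes up most of ODF2 in every bull, whereas the leading transcripts of FSIP2 and ODF4 differ from bull to bull.

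In FSIP2 and ODF4, most of the level in bulls was given to transcripts that the authors assembled from the reads. The Ensembl transcript FSIP2-201 was at 0.00551, 0.109 and 0.0671 in the bulls, and assembled transcripts held 99.97%, 99.6% and 99.7% of FSIP2. TCONS_00163766 was at 8.25, 15.7 and 20.2 in the bulls, and TCONS_00163767 at 12.7, 13.6 and 4.40. Both start at 10562905, and they end at 10705112 and 10705428. The calls were for higher levels in bulls, at log2 fold changes of 3.55 (adjusted p = 0.000408) and 3.36 (adjusted p = 0.000893). The first held 38.9% of FSIP2 in bull 1 and 81.6% in bull 3, and the other was listed at 0 in all calves. For ODF4, assembled transcripts held 82.3%, 93.0% and 47.6% in the bulls. ODF4-OT1 was at 7.74, 5.13 and 2.93 and the Ensembl transcript ODF4-201 at 2.58, 1.08 and 4.69, so that the leading transcript in bull 3 was not that of the other bulls. Their log2 fold changes were 2.57 (adjusted p = 0.000763) and 1.80 (adjusted p = 0.00674), and ODF4-201 was not called after quantile normalization (1.09, adjusted p = 0.0600).

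Other entries of the table of genes overlap 4 of the 10 loci. The entry of CERCAM, a gene of a cell adhesion molecule, runs from 99005557 to 99062810 on chromosome 11 and covers the whole of ODF2. Its Ensembl transcript CERCAM-201 ends at 99017657, before ODF2 begins. CERCAM-201 was at 8.01, 7.97 and 25.4 in the calves and at 1.42, 1.94 and 1.81 in the bulls. The lower level in bulls was called (log2 fold change −2.25, SE 0.46, adjusted p = 0.00751), and without calf 3 the fold change was −1.73 (adjusted p = 0.000462).

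The other transcripts of the CERCAM entry, TCONS_00051480 and TCONS_00051481, were assembled from the reads. They start at 99015115, inside CERCAM-201, and reach past the end of ODF2. TCONS_00051480 was at 14.5, 19.1 and 27.6 in the bulls and below 0.1 in the calves, and TCONS_00051481 was at 10.7, 15.0 and 25.3 in the bulls and at 0.511 to 0.686 in the calves. Calls were made for both, at log2 fold changes of 4.28 (adjusted p = 6.74e-05) and 3.41 (adjusted p = 0.000313). Their order across bulls was that of ODF2. The entry of CERCAM as a gene was called higher in bulls (log2 fold change 1.496, adjusted p = 0.0408), opposite to its Ensembl transcript. These transcripts were chosen after their values were seen. The tables give neither exons nor strands, and whether fragments of ODF2 were counted for CERCAM, or the reverse, was not tested.

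**Figure D4:**
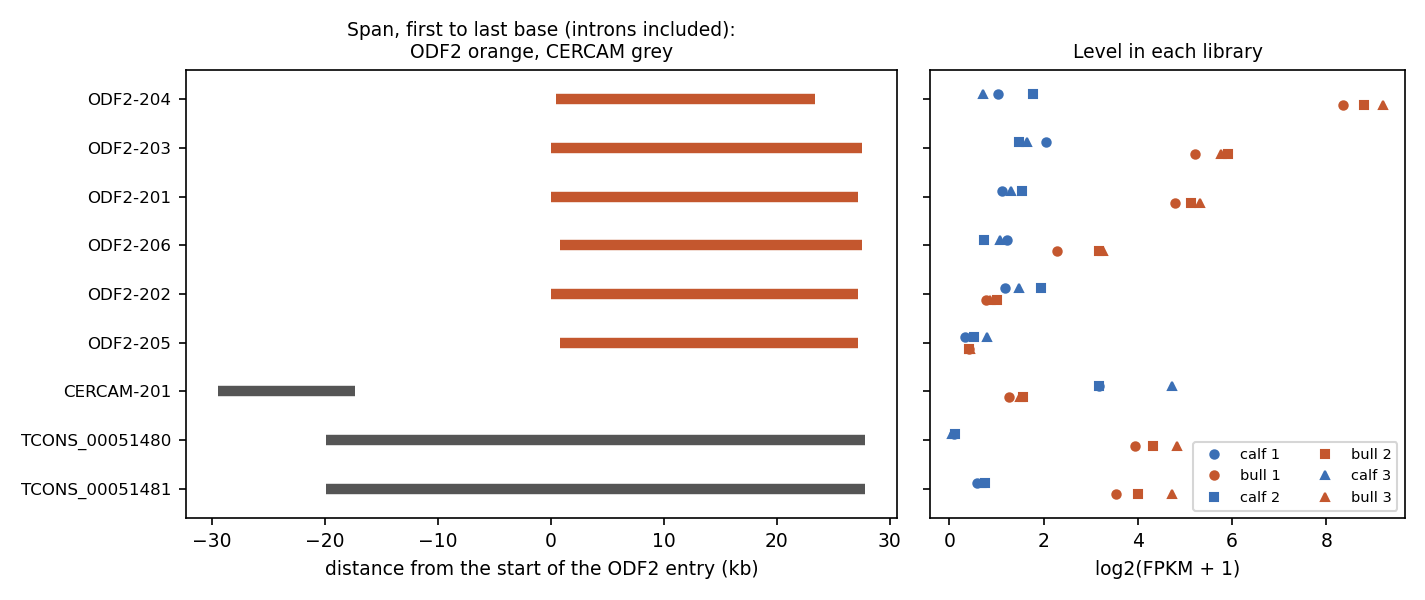
Left, span of each transcript of ODF2 and CERCAM, from first to last base with introns included, as distance in kb from the start of the ODF2 entry. Right, level of each as log2(FPKM + 1), with calves in blue and bulls in orange; the assembled CERCAM transcripts cover ODF2 and are high in bulls, whereas CERCAM-201 is high in calves.

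ROPN1 is overlapped over nearly its whole length by an entry with the name RF00015, which in the Rfam database stands for the U4 small nuclear RNA. The assembled transcript TCONS_00004481 of this entry (chromosome 1, 68349811 to 68384970) was at 15.7, 16.2 and 18.8 in the bulls and at 0.0319, 0.131 and 0 in the calves, a log2 fold change of 4.08 (adjusted p = 2.17e-05). The small nuclear RNA itself, RF00015-201, was below 0.1 in all libraries. The called rise of this entry was thus carried by a transcript along ROPN1, whose own FPKM in bulls was between 355 and 388. The other overlaps concern AKAP4, with an entry at 0 in all libraries, and ODF4, with an assembled entry at 1.13 to 1.498 in bulls that was not called (adjusted p = 0.0737).

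Further genes whose products bind to or lie with these structures were set beside the 10 genes. Of 13 genes found for the outer dense fibres, 13 were tested and 12 were called higher in bulls, beside 35.7% of all genes tested. Only TSGA10, HOOK1, ODF3B and ODF2L reached an FPKM of 1 in all calves. The others passed the filter only with the bulls, so that their number called is no support. The median log2 fold change of the 13 was 4.09. The largest were OAZ3 (7.23, adjusted p = 2.93e-06), an antizyme of spermatids, TEKT4 (5.81), a tektin, SPAG4 (5.20), which binds ODF1, and TSGA10 (4.86). OAZ3 was at 335, 298 and 349 in the bulls and at 1.495, 1.19 and 0.886 in the calves. The genes of the ODF3 family lay lower: ODF3 was at 15.6 to 17.0 in bulls, and ODF3L1, ODF3L2 and ODF3B were between 4.28 and 11.5. ODF2L, a paralog of ODF2 that acts at the centriole, was the gene not called. Its FPKM was 22.1, 20.6 and 20.1 in the calves and 23.1, 23.9 and 21.1 in the bulls, so that the groups overlapped (log2 fold change 0.11, SE 0.14, adjusted p = 0.518). ODF2 and ODF2L, which share the name of the family, thus had fold changes of 5.77 and 0.11, a difference that was not tested itself.

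For the fibrous sheath, 19 genes were found, 18 tested and 14 called higher in bulls, beside 35.7% of all genes tested. Of those called, only SPA17, PRKAR2A, HK1 and PRKAR1A reached an FPKM of 1 in all calves. The others called passed the filter only with the bulls, so that their number is no support. The median log2 fold change of the 18 was 2.97. The largest were TXNDC8 (7.49), a thioredoxin of sperm, CABS1 (7.40), which binds calcium, LDHC (6.85) and GAPDHS (6.60), the sperm forms of lactate dehydrogenase and glyceraldehyde-3-phosphate dehydrogenase, with adjusted p between 3.01e-06 and 0.000202. SPA17, which has the same docking domain as ropporin, was at 615, 605 and 596 in the bulls, above every one of the 10 genes in bull 1 and bull 2. FSCB, which binds CABYR, was at 39.1, 48.5 and 52.4 in bulls and below 0.1 in calves.

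The genes not called include subunits of protein kinase A that are also used in body cells. PRKACA, the catalytic subunit, had a log2 fold change of 0.35 (SE 0.42, adjusted p = 0.511). ALDOA, an aldolase, had 0.63 (SE 0.30, adjusted p = 0.125). The groups overlapped in both, but only through calf 3. PRKACA was at 3.84 and 5.09 in calf 1 and calf 2, at 13.4 in calf 3 and at 7.81 to 9.16 in bulls. ALDOA was at 58.8 and 74.9 in calf 1 and calf 2, at 126.5 in calf 3 and at 125.5 to 131.1 in bulls. Neither was called in the fit that left out calf 3. PRKAR2B, a regulatory subunit, was at 65.8 and 59.3 in calf 1 and calf 2, at 14.4 in calf 3 and at 12.8 to 14.4 in bulls. It was not called (−1.45, adjusted p = 0.07535), but the fit that left out calf 3 put it lower in bulls and called it (−2.13, adjusted p = 1.32e-05). RHPN2 was at 2.50 and 1.75 in calf 1 and calf 2, at 27.8 in calf 3 and at 24.5 to 36.8 in bulls, and was called higher only where calf 3 was left out or given less weight (3.26, adjusted p = 3.66e-05 without it). PRKAR2A, the regulatory subunit that AKAP proteins hold in the tail, was called higher (2.67, adjusted p = 0.00110).

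**Figure D5:**
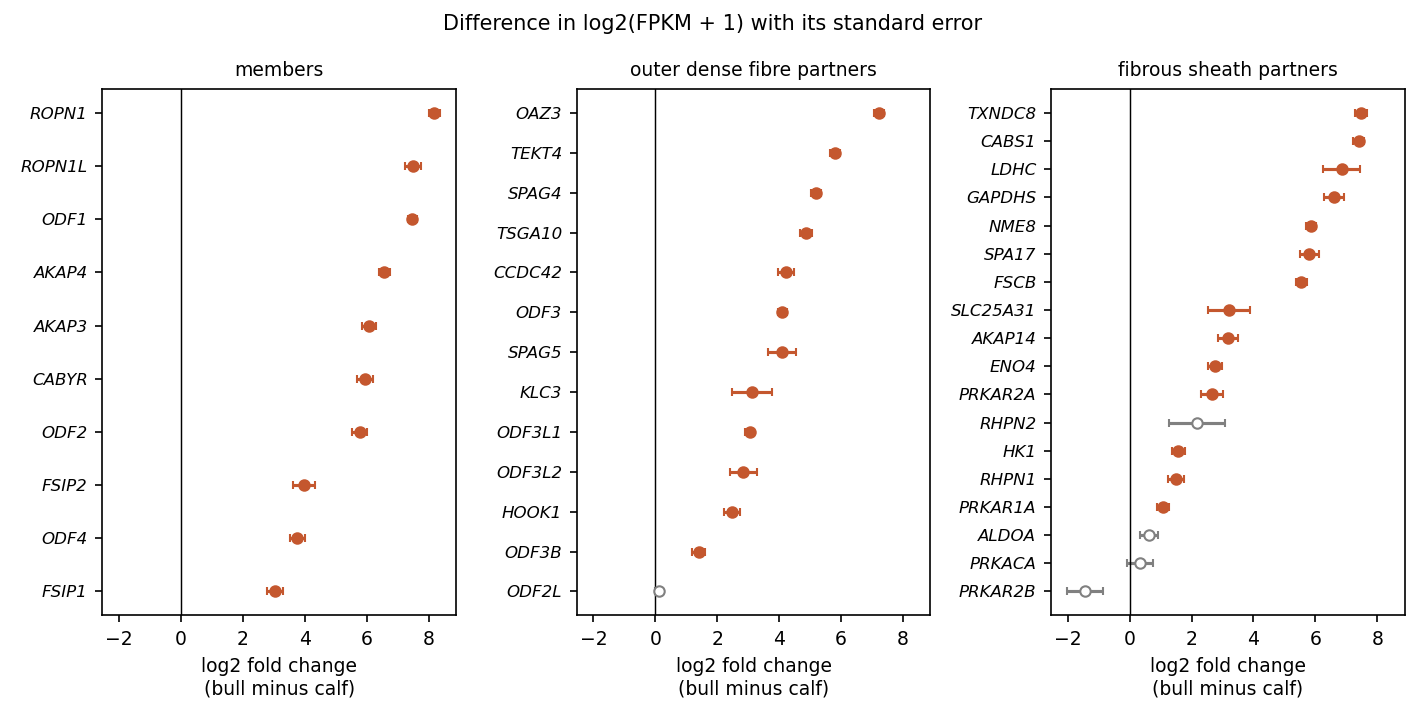
Log2 fold change (bull minus calf, on the log2(FPKM + 1) scale) with its standard error for the 10 genes and for tested partner genes of both structures. Filled points were called and open points were not; ODF2L lies at 0.11, whereas ODF2 lies at 5.77.

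The genes with levels most like those of ODF1, AKAP4 and ODF2 were sought over 13383 other tested genes with a symbol, by the Euclidean distance of log2(FPKM + 1) over the 6 libraries. For ODF1 they were PDHA2 (distance 0.24), the testis form of a subunit of pyruvate dehydrogenase, RNF151 (0.28) and ADAM3A (0.29). PDHA2 was at 161, 175 and 198 in the bulls and at 0.0400 or less in the calves. For AKAP4 they were LRRC23 (0.53), of the axoneme, TEKT1 (0.55) and SPESP1 (0.58), of the acrosome. The nearest to ODF2 were SPA17 (0.97), CETN4 (1.27), a centrin, and DDX25 (1.58), and they lay farther from it than the neighbours of ODF1 and AKAP4 did from theirs. With 6 libraries in 2 groups, such a distance reflects mainly the levels in the 2 groups.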

How the data were processed

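Low-quality reads and reads of ribosomal RNA (Bowtie2) were removed by the authors, the others were mapped with TopHat2 and assembled with StringTie, and FPKM values per gene and per transcript were deposited for each of the 6 libraries, without counts. The tool that made the FPKM values of genes is not given in the sources used here. The Methods name UMD 3.1.1, but 99.7% of 16298 symbols found once in both, and 10 of 10 genes of interest, overlapped the locus of the same symbol in RefSeq's ARS-UCD2.0 annotation; positions are printed as in the tables.

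Values were taken as log2(FPKM + 1), and features reaching an FPKM of 1 in 3 or more libraries were tested. Bulls and calves were compared with limma 3.58.1 in R 4.3.3 (empirical Bayes with a trend), with Benjamini-Hochberg adjustment over all features tested. A call required both an adjusted p under 0.05 and a difference of 1 or more on the log2 scale. On simulated data with 16752 genes, 64 of 100 genes changed by a log2 fold change of 2 and 91 of 100 changed by 4 were recovered, with 8 unchanged genes called; with 20765 transcripts these were 57, 91 and 18. Single shares, of the transcript with the highest mean over all libraries, were compared by exact permutation in scipy 1.17.1. Alternatives were a pseudocount of 0.1, no filter, quantile normalization, rescaling to a common total, array weights, a replicate block and leaving out each library.

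The genes of interest, the lists of partners and of cell type markers (germ cell stages, Sertoli cells, Leydig cells, motile cilia, and oligodendrocytes, astrocytes and neurons) were chosen with earlier results of these data known. Named were the 10 genes, their tested transcripts, the partners with the largest called changes and the most abundant not called, the most abundant markers, and the 3 nearest genes of ODF1, AKAP4 and ODF2 (Rfam names left out); other names were chosen after their values were seen. The symbols CIMAP1A to CIMAP1D, PGK2, UTF1 and PIFO were not matched.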

Additional observations from a re-analysis of the deposited data

How the results depend on the processing

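Under all 12 alternatives, the 10 genes were called higher in bulls. Their median log2 fold change lay between 5.45 after quantile normalization and 7.40 with a pseudocount of 0.1, and the ranges were widest for ODF1 (6.71 to 10.70) and ODF4 (2.99 to 6.92), which are near 0 in calves. The called transcripts numbered 15 or 16 and the called partners of the outer dense fibres 11 or 12. Those of the fibrous sheath numbered 12 to 16, of which 11 to 15 were higher in bulls, as RHPN2, PRKAR2B, PRKAR1A, HK1 and RHPN1 changed their call. PRKAR2B was called lower in bulls after quantile normalization, after rescaling, with array weights and without calf 3. Quantile normalization ended the call of ODF4-201 and gave one to ODF2-202, and over all genes it turned the split of 6474 higher and 1741 lower into 3827 and 4538. With each library left out in turn, the difference in the share of ODF2-204 lay between 64.6 and 72.7 percentage points; p was then 0.2, the smallest that 3 animals against 2 allow in this two-sided exact permutation test. The replicate numbers were not known to pair animals: the deviations of libraries with the same number had correlations of 0.028, 0.025 and 0.034, each the highest of its library. With the replicate block, 10 genes and 15 transcripts stayed called, and 8128 genes in all against 8215. Without counts, the precision of the low values in calves is not known.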

Other observations

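Genes of motile cilia, which are also used by the sperm tail, were read beside the tail genes. Of 11 genes found, 10 were tested and 8 were called higher in bulls, beside 35.7% of all genes tested. Of those called, only CFAP126 reached an FPKM of 1 in all calves. The others called passed the filter only with the bulls, so that their number is no support. The median log2 fold change of the 10 was 3.27. TEKT1, a tektin of the axoneme, was at 153, 181 and 223 in the bulls and at 1.21, 1.17 and 0.432 in the calves (log2 fold change 6.60, adjusted p = 9.55e-06, limma). SPAG6, a protein of the central pair of microtubules, was at 114, 111 and 105 in the bulls and at 3.38, 3.77 and 0.260 in the calves (5.22, adjusted p = 0.000356). The 10 genes of the dense fibres and the sheath were lowest or tied for lowest in the library labelled calf 3. Of the cilia genes, TEKT1, SPAG6 and DNAI2 were lowest in that library too, and FOXJ1 was highest in calf 1. Being lowest in calf 3 thus did not set the 10 genes apart from all cilia genes. The share of all genes tested that were highest in calf 3 was not counted. The other cilia genes, RSPH1, DNAI1, CFAP126, CCDC153, DNAH5, RSPH4A and TPPP3, were highest among calves in the library labelled calf 3. These 7 were named after their values were seen. RSPH1 was at 2.01 there, against 0.261 and 0.314 in calf 1 and calf 2, and TPPP3 at 20.4, against 6.14 and 6.38. The summed FPKM of the cilia genes was 18.5, 17.5 and 31.9 in the calves and 394 to 464 in the bulls, and the higher sum in calf 3 was carried by TPPP3, which was itself not called between the groups (adjusted p = 0.121).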
